A study of Homo sapiens with 23 samples.

Results

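The comparison was of acetylation of histone H3 lysine 18 (H3K18ac) in SW480 cells, an established epithelial line from a human colorectal cancer, after butyrate and without it. The 4 libraries were chosen by their labels out of 23 in the series: 2 of cells given 1 mM sodium butyrate (NaBu) for 12 to 16 hours and 2 of untreated cells, none of them carrying any other agent or engineered allele. Chromatin immunoprecipitation with an antibody against H3K18ac was followed by paired-end sequencing. The authors called enriched regions in each library on its own. A single cell line was used, and nothing stated that the replicates were separate cultures, so any p-value measures only the spread between these libraries.

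H3K18 is acetylated mainly by the coactivators p300 and CBP, and the mark sits at active promoters and enhancers, where it helps to recruit transcriptional regulators. Butyrate is a short-chain fatty acid made by gut bacteria, a fuel of colon cells and an inhibitor of the zinc-dependent histone deacetylases, which remove acetyl groups. In colon cancer cells it is known for slowing growth and favouring differentiation.

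The lists differed between the groups in ways other than treatment. They held 116459 and 60344 regions in NaBu replicates 1 and 2, and 76888 and 155103 regions in untreated replicates 1 and 2. Fragment densities solved from the fold and p-values of the regions were 5.67 and 9.59 per kb in NaBu and 11.2 and 28.3 per kb in untreated cells. On the same measure the matched inputs had 4.38 per kb in NaBu and 78.7 per kb in untreated cells. The NaBu and untreated lists carried different run tags, so that run and treatment cannot be told apart and no value within a run can be had. The names of the NaBu lists also carried the tag that other lists use for control cells; the sample labels were followed. Of 16 fixed markers of colon epithelium, 10 had a region at the gene 5′ end in all 4 libraries, among them EPCAM, CDH1 and KRT19, and 1 (CDH17) had a region in none. Of 19 markers of blood, stromal, endothelial, muscle, liver and glial cells, 12 had no region in any library and 2 (ACTA2 and CD14) were held by all 4.

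A gene was counted as held when a region touched the 2 kb window centred on its annotated 5′ end, 1 kb either side. It was called gained when that region was among the 60344 strongest of both NaBu libraries and neither untreated list had a region of any strength in the window, and lost in the mirror case. The number 60344 is the length of the shortest list, and strength is the −log10 p-value of the peak caller. Promoters of called genes are shown first because the gained and lost sets differed in base composition. They are RefSeq sequences of GRCh38.p14, 250 bases before and 50 after the start of transcription, 5′ to 3′ on the strand of the gene, with every CpG in capitals. The first 4 belong to gained genes and the last 3 to lost genes, and in all 7 the RefSeq start lay no more than 179 bp from the 5′ end that was called.
MACC1: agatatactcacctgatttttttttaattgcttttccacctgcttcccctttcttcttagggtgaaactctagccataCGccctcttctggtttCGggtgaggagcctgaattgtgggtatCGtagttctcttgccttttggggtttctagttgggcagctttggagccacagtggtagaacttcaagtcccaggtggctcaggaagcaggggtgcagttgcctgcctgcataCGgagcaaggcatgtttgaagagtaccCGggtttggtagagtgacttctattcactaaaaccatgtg
SSTR1: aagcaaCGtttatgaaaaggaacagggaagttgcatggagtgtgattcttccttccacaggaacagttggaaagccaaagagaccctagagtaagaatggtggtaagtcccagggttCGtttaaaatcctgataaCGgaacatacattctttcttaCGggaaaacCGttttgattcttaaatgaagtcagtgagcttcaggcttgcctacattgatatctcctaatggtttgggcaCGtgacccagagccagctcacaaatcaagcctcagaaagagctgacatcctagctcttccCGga
SLC25A21: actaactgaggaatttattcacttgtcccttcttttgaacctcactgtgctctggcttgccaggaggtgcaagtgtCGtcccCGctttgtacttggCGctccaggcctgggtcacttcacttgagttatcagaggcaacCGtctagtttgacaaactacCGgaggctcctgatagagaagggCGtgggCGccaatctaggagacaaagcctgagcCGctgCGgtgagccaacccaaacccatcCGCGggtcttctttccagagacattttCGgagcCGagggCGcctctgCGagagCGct
DPP4: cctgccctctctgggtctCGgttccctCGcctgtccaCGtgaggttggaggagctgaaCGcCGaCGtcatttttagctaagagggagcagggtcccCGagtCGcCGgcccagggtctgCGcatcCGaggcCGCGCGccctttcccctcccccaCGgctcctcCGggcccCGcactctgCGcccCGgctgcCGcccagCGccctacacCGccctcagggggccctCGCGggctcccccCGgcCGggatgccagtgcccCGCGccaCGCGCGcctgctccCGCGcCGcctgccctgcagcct
CDX2: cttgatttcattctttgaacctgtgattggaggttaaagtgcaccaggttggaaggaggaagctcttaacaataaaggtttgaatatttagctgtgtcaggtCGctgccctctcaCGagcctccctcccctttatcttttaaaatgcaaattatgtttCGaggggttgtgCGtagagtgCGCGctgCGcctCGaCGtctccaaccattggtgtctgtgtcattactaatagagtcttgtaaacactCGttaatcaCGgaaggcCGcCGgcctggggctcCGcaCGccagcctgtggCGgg
TMDD1: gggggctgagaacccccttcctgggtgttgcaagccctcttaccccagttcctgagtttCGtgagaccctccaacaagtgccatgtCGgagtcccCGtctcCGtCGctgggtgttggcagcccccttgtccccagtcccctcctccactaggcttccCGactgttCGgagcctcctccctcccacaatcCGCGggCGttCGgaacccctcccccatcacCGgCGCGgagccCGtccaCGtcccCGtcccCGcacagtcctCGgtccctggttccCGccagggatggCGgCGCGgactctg
MLLT1: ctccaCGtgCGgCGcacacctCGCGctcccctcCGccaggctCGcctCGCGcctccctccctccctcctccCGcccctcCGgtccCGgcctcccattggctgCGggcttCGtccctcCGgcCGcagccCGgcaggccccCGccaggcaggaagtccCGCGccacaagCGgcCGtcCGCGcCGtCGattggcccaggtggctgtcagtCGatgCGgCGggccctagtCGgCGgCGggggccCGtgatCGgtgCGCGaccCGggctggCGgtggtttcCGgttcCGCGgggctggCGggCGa

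These promoters lie at chr7:20217335-20217634 (MACC1, minus strand), chr14:38207654-38207953 (SSTR1, plus), chr14:37172557-37172856 (SLC25A21, minus), chr2:162074166-162074465 (DPP4, minus), chr13:27969266-27969565 (CDX2, minus), chr12:51814876-51815175 (TMDD1, minus) and chr19:6279926-6280225 (MLLT1, minus). The gained promoters held 5 CpGs in MACC1, 7 in SSTR1, 16 in SLC25A21 and 34 in DPP4. The lost promoters held 16 in CDX2, 23 in TMDD1 and 43 in MLLT1. DPP4 shows that a CpG-rich promoter could also be gained, and CDX2 that a lost one could be of moderate density.

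Over whole sets, 48 of 193 gained and 610 of 1586 lost genes had a RefSeq start within 1 kb of the called 5′ end. The median number of CpGs in the 300 bp was 6.5 for gained, 28 for lost and 27 for promoters held by all 4 libraries, against 21 over all 12725 matched promoters. The GC box GGGCGG, searched on both strands, was in 33.3% of gained, 75.6% of lost, 73.4% of those held by all 4 and 54.9% of all matched promoters. TATAAA was in 12.5%, 5.57% and 10.6%, and CCAAT in 37.5%, 34.3% and 36.7% in the same order. The AP-1 letters TGANTCA were in 4.17% of gained, 2.95% of lost and 6.62% of all. CCGGAAG (ETS) was in 10.4%, 12.5% and 14.1% in that order, and in 24.7% of those held by all 4. In the full 2 kb windows the median GC content was 49.7% for gained and 57.6% for lost genes, against 56.4% for those held by all 4 and 51.6% over all genes. Base composition also moved with retention: of 5′ ends strong in both NaBu libraries, 36.6% had no untreated region where the window was under 40% GC, 1.25% between 50% and 60%, and 0 of 235 above 70%. Of 5′ ends strong in both untreated libraries, 32.5% had no NaBu region under 40% GC, 8.08% between 50% and 60%, and 18.1% above 70%. Its part in the calls was not tested.

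Far more 5′ ends lost than gained H3K18ac regions under equal numbers of regions. With the 60344 strongest regions, 14618 and 12682 genes were held in the NaBu libraries and 17894 and 17259 in the untreated libraries, out of 38899 protein-coding and lncRNA genes. Both NaBu values lay below both untreated values, with a difference in means of −3926.5 genes (NaBu minus untreated, n = 2 each, two-sided exact permutation test p = 0.333, the smallest p that 2 against 2 libraries allow). By the strict rule 193 genes were gained (0.496% of all genes) and 1586 lost (4.08%). The gained genes comprised 71 protein-coding and 122 lncRNA genes in 180 separate windows, and the lost genes 1090 and 496 in 1367 windows. All 4 libraries held 11455 genes and none held 16244. With all regions on both sides the counts were 270 (0.694%) and 2104 (5.41%), and with the strongest regions on both sides 297 (0.764%) and 2379 (6.12%).

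That excess of losses depended on how the lists were made equal. The 60344 strongest regions spanned 33.0 and 29.4 Mb in NaBu and 61.2 and 42.5 Mb in untreated cells, since untreated regions were wider. When each list was cut at an equal summed width of 29.4 Mb, an alternative added after the data were seen, the genes held were 13701 and 12682 in NaBu and 10896 and 14635 in untreated cells. The groups then overlapped, with a difference of 426 genes in the other direction (exact permutation p = 1). That cut left 47550 and 60344 regions in NaBu and 13499 and 27153 in untreated cells, so the numbers of regions were then unequal. Under that setting on both sides 962 genes were gained and 665 lost, so gained genes made up 59.1% of the calls against 10.8% by the strict rule. Of the 193 gained genes 164 were also called there, and of the 1586 lost genes 323.

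Width at shared promoters differed in the same sense. At the 10796 genes held by all 4 equal-number lists, regions covered a median of 944 and 643 bp of the window in NaBu and 1574 and 1279 bp in untreated cells. The difference in means was −633 bp (exact permutation p = 0.333, the smallest possible), and it was −596 bp with equal summed width. Around the 5′ ends of protein-coding genes the share covered was highest 200 bp downstream in NaBu replicate 1 (31.2%), 300 bp upstream in NaBu replicate 2 (20.9%), and 300 and 250 bp downstream in untreated replicates 1 and 2 (51.4% and 49.2%). All 4 profiles had a dip within 100 bp of the 5′ end, and NaBu replicate 2 was the only one with its maximum upstream.

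**Figure D1:**
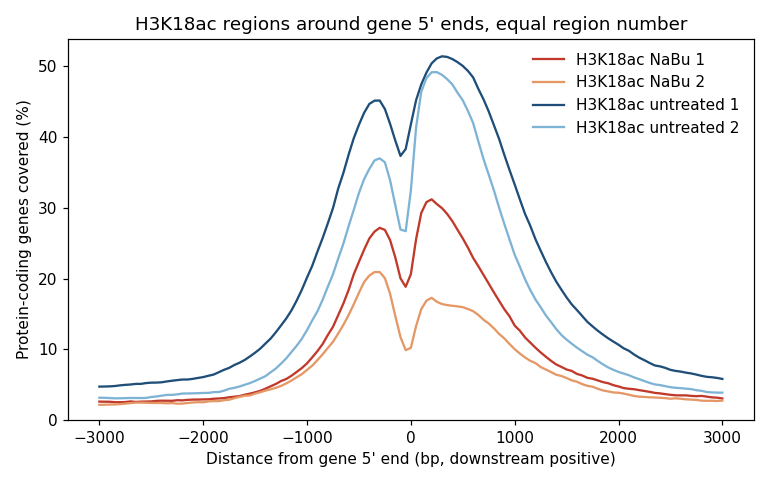
Share of 20033 protein-coding genes (%, vertical axis) covered by one of the 60344 strongest H3K18ac regions, against distance from the gene 5′ end in bp (horizontal axis), 1 line per library. Maxima are 31.2% and 20.9% in the NaBu libraries and 51.4% and 49.2% in the untreated libraries.

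Loss was most common among weakly enriched 5′ ends. Among genes held by both untreated libraries with a lower fold enrichment of 2 to 3, both NaBu libraries held 30.0% and neither held 38.3%. At a fold of 10 to 20 these shares were 86.5% and 2.12%, and at 20 or more 93.8% and 0.644%. In the other direction the shares changed less. Genes with a NaBu fold of 2 to 3 were held by both untreated libraries in 85.1% of cases, and those with a fold of 5 to 10 in 98.2%. Fold here means how many times the background expected nearby was exceeded at the summit, a value that depends on depth. Of the lost genes, 579 had a fold of at least 5 in both untreated libraries, and of the gained genes 33 in both NaBu libraries. Many calls lay near a region of the other group: 53.9% of gained 5′ ends were within 5 kb of an untreated region and 46.2% of lost ones within 5 kb of a NaBu region.

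**Figure D2:**
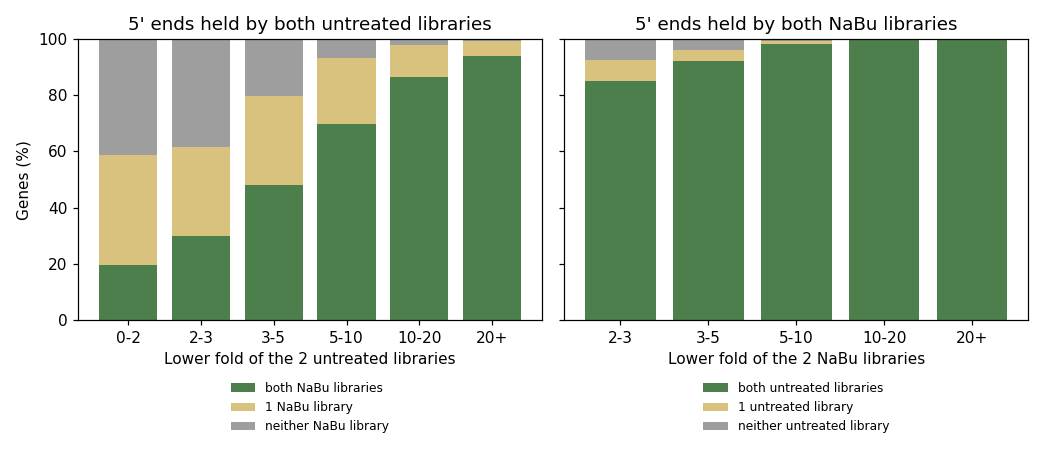
Genes held at their 5′ end by both untreated libraries (left) or both NaBu libraries (right), by the lower fold enrichment of the pair (horizontal axis). Stacked bars give the percentage of genes held by both, 1 or neither library of the other group, and the share held by neither falls from 38.3% at a fold of 2 to 3 to 0.644% at 20 or more on the left.

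Among gained protein-coding genes with no input region in the window, MACC1, a regulator of the MET receptor gene linked to colon cancer metastasis, had the strongest regions. Its 5′ end had folds of 15.5 and 12.9 in NaBu, covering 1986 and 1794 bp, and no region in either untreated library, whose nearest region was 1634 bp away. A 2 kb flank therefore ended the call. XKR6 had folds of 8.98 and 10.9. MUCL1, which encodes a small mucin-like glycoprotein, had 9.80 and 7.96, but its RefSeq start lay 23998 bp away and had no region in any of the 4 libraries. These calls also had partial counterparts in other marks: MACC1 had folds of 6.26 and 6.29 and MUCL1 of 4.06 and 6.30 in the H3K18 butyrylation libraries of NaBu cells.

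The next gained genes encoded a regulator of the sodium pump (FXYD4, folds 6.33 and 5.74), a dystrophin-associated protein (DTNA, 7.57 and 5.50) and a mitochondrial oxodicarboxylate carrier (SLC25A21, 5.396 and 6.77). PPP1R36, a protein phosphatase 1 subunit, had 8.15 and 4.93. NGEF, a guanine nucleotide exchange factor, had 6.33 and 4.71. SSTR1, a somatostatin receptor, had 4.68 and 5.13. MKKS, a chaperonin-like protein whose symbol the annotation also gives to the 192 bp gene called here, had 4.65 and 4.80. FABP12, of the fatty acid-binding proteins, had 4.57 and 5.19. None of these 5′ ends had an untreated region. ELF3, an epithelial transcription factor, had 4.72 and 5.12 at its annotated 5′ end, but at its RefSeq start, 2642 bp away, the folds were 8.03 and 7.29 in NaBu and 13.3 and 4.64 in untreated cells, so that only the upstream end was gained.

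The strongest lost 5′ ends had higher folds than the strongest gained ones. TMDD1 had untreated folds of 23.7 and 20.7. DENND6B, of the DENN family of Rab exchange factors, had 18.9 and 25.2. POLR2L, a small subunit shared by the RNA polymerases, had 17.3 and 27.7. ATG4B, a protease of autophagy, and THAP4 shared a bidirectional window with folds of 18.03 and 16.3. No NaBu region lay in any of these windows. TENM3, a teneurin adhesion protein, had 31.6 and 15.1. BOC, a Hedgehog coreceptor, had 15.8 and 15.1. SFMBT1, an MBT-domain repressor, had 14.8 and 15.1. PXDC1 had 16.9 and 14.5, and MCM9, a helicase of DNA repair, had 26.4 and 14.3. NaBu regions lay 1204 bp from the 5′ end of POLR2L, 1024 bp from that of TENM3 and 1165 bp from that of PXDC1, and a 2 kb flank ended these 3 calls. MFSD11 had 27.3 and 14.01 and DNAJB6, a co-chaperone, 17.3 and 13.97, but at their RefSeq starts, 2254 and 1623 bp away, both NaBu libraries did have regions, with folds of 22.005 and 11.05 for MFSD11 and 7.49 and 6.07 for DNAJB6.

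**Figure D3:**
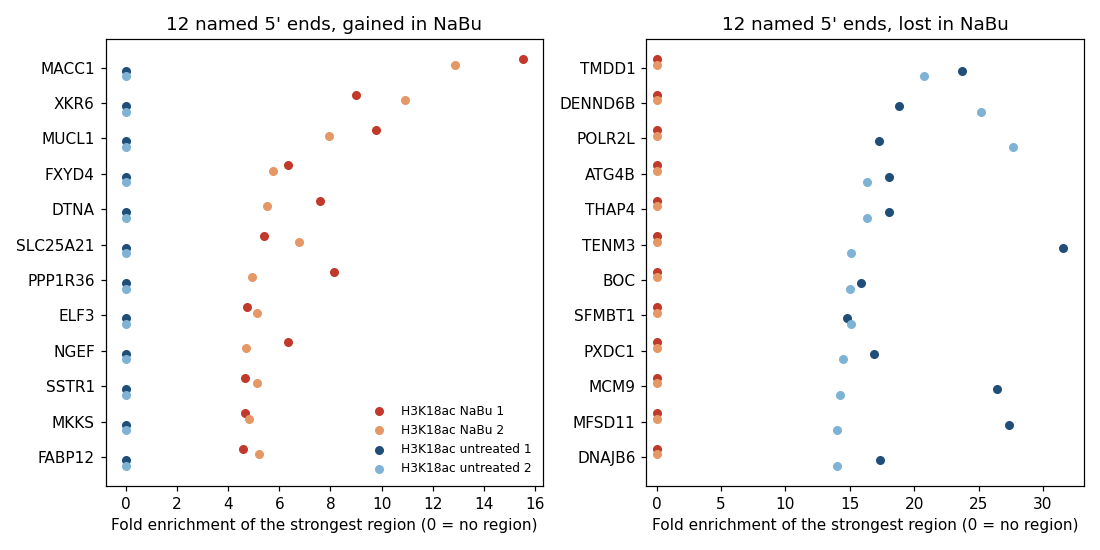
Fold enrichment of the strongest H3K18ac region within 1 kb of the 5′ end (horizontal axis, 0 where there is none) for the 12 named gained and 12 named lost genes, 1 point per library. Folds in the holding group run from 4.57 to 15.5 on the left and from 13.97 to 31.6 on the right, and the other group is at 0 by the rule.

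Gene lists were read against the shares of all 20033 protein-coding genes, of which 71 (0.354%) were gained and 1090 (5.44%) lost. Of 40 genes of mature enterocytes and goblet cells, the strongest regions held 13 and 11 in NaBu and 8 and 9 in untreated cells. Among them DPP4, a brush border peptidase, was gained with folds of 5.004 and 3.42, and TFF3, a goblet cell trefoil peptide, with 4.66 and 2.59. None was lost. VIL1, which encodes the microvillus protein villin and was held by all 4 libraries, was named after its values were seen. Its folds were 7.65 and 9.61 in NaBu and 3.50 and 3.66 in untreated cells. MUC2, the main secreted colon mucin, went the other way, with 4.35 and 3.93 in NaBu and 20.1 and 7.78 in untreated cells.

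Among 28 intestinal transcription factors, the called members described here were ELF3, gained at its upstream end, and 2 lost genes. CDX2, the master regulator of intestinal identity, was lost, with folds of 13.5 and 7.97 in untreated cells and no region in NaBu. PPARG, a nuclear receptor of lipid metabolism, was lost from 6.71 and 5.42. CDX1 had a region in NaBu replicate 1 alone. Intestinal regulators were therefore called in both directions.

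Of 43 Wnt pathway genes, 3 were lost and none gained, while 22 were held by all 4 libraries. The lost ones were LEF1, a transcription factor that acts with beta-catenin (folds 12.1 and 8.70), and the Wnt receptors FZD3 (5.68 and 6.13) and FZD6 (10.6 and 14.8). At the RefSeq start of LEF1, 2655 bp away, NaBu replicate 2 had a region of fold 3.43. In the TGF-beta and BMP list, 3 of 35 were lost, the ligands TGFB2 (6.13 and 3.44) and TGFB3 (3.77 and 4.48) and the BMP antagonist NOG (10.6 and 8.66). Of 41 cell cycle genes, 32 were held by all 4 libraries, none was gained and PLK1, a mitotic kinase, was lost from 11.4 and 2.34, although its RefSeq start 1233 bp away had folds of 4.12 and 4.19 in NaBu. The CDK inhibitor gene CDKN2C, whose window also held an input region, was lost from 5.39 and 4.66.

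Few genes that write, remove or read acetylation were called. Over all protein-coding genes 5.44% were lost and 0.354% gained, so few calls would fall in lists this short in any case. None of 11 histone deacetylase and 7 sirtuin genes was gained or lost, and 7 and 5 of them were held by all 4 libraries. Of 13 acetyltransferases, KAT6B (3.66 and 5.30) and KAT2B (3.56 and 3.92) were lost. MLLT1, a YEATS-domain reader of acyl-lysine, was lost from 11.8 and 7.22. ECHS1, an enzyme of short-chain acyl-CoA oxidation, was the only lost gene of 28 in that list, with 5.75 and 3.72. Of 17 AP-1 subunit genes, BATF was lost (5.10 and 3.90) and 15 were held by all 4.

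Of 30 neuronal genes, 5 were lost: the granin CHGB (4.18 and 2.76), the synaptic genes SNAP25 (5.05 and 4.59), CPLX2 (5.44 and 3.57) and SYN1 (3.39 and 5.11), and the ubiquitin hydrolase UCHL1 (8.36 and 10.4), although NaBu replicate 1 had a region of fold 3.24 at its RefSeq start, 515 bp away. Of 69 replication-dependent histone genes 7 were lost, and of 39 HOX genes 4 (HOXB2, HOXD1, HOXD8 and HOXD11). NaBu replicate 1 also had a region at the RefSeq start of HOXD11, 3064 bp away. Keratin genes gave 3 losses of 55 (KRT6A, KRT71 and KRT72), and zinc finger genes 24 of 476, with none gained. Both counts were near the share of 5.44% lost among all protein-coding genes. Actin and adhesion genes gave 1 loss, RHOC, a small GTPase with untreated folds of 21.1 and 10.1 and an input region in its window. Single losses also fell on CD74 among antigen presentation genes, BID among BCL2 family genes, and pairs on the respiratory chain (ATP5F1D and NDUFS7), the proteasome (PSME1 and PSMG2) and Mediator (MED12L and MED13L). At the RefSeq start of MED12L, 378 bp away, NaBu replicate 1 had a region. Of 86 cytosolic ribosomal protein genes, 75 were held by all 4 and none was called. No fixed olfactory receptor gene was called at its 5′ end, and 379 of 413 were held by no library.

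Gene body coverage, the percentage of the annotated gene inside the strongest regions, allowed a test per gene. Of 18491 genes with a mean coverage of at least 1%, limma on log2(percent + 1) called 220 higher in NaBu (1.19%) and 1670 lower (9.03%) at an adjusted p under 0.05. The median log2 difference over all tested genes was −0.82, so the whole distribution was shifted. Among protein-coding genes 69 (0.563%) were higher and 1063 (8.67%) lower. With libraries centred on the median gene the counts were 467 higher and 860 lower, and with equal summed width 648 higher and 479 lower, with a median of −0.33. Of the higher genes 194 were at 0% in both untreated libraries, and of the lower genes 1232 were at 0% in both NaBu libraries, so most calls were genes without a region in one group. Leaving out NaBu replicate 1 or NaBu replicate 2 gave 0 calls in both directions by limma, with 499 and 604 genes higher and 6375 and 4281 lower at an unadjusted p under 0.05.

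S100P, a calcium-binding protein often raised in epithelial cancers, had the largest increase of a named protein-coding gene. Regions covered 73.6% and 75.4% of its 3293 bp in NaBu and none of it in untreated cells, a log2 difference of 6.24 ± 0.264 (SE, limma adjusted p = 0.00636). At its 5′ end all 4 libraries had a region, with folds of 11.05 and 16.6 in NaBu and 2.62 and 2.78 in untreated cells. With all regions instead of the strongest the log2 difference was 2.55, since weak untreated regions then counted. The S100P call held with all regions (limma adjusted p = 0.0279), unlike those of CD93, APOC4, APOC4-APOC2 and APOC2 (limma adjusted p = 0.134 to 0.269). CD93, a surface glycoprotein best known from endothelium, was covered over 59.2% and 55.3% in NaBu and not in untreated cells. APOC4, APOC2 and the readthrough gene APOC4-APOC2 overlap on chromosome 19 and count as 1 locus. APOC2, the cofactor of lipoprotein lipase, was covered over 42.0% and 48.1% in NaBu and 0% in both untreated libraries.

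The remaining 3 named higher genes were also at 0% in untreated cells. ASPRV1, a skin protease, had 24.5% and 43.0%. LY6G6C, a Ly6 family surface protein, had 34.4% and 21.04%. CCNP, a cyclin, had 31.3% and 21.3%. The increases are given on the log2(percent + 1) scale and were 5.07 ± 0.368, 4.80 ± 0.330 and 4.75 ± 0.285 (SE). The calls of ASPRV1 and LY6G6C were also lost with all regions (limma adjusted p = 0.228 and 0.212), while that of CCNP held (limma adjusted p = 0.0155). Without any 1 library the calls of all 3 were lost. The log2 differences were then 4.67 to 5.46 for ASPRV1, 4.46 to 5.15 for LY6G6C and 4.48 to 5.01 for CCNP. FXYD3, a sodium pump regulator of epithelia chosen after its values were seen, differed in having some coverage in every library, at 57.7% and 50.8% in NaBu and 2.89% and 2.40% in untreated cells (log2 difference 3.92 ± 0.293, limma adjusted p = 0.0115).

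The 8 named lower genes were very short, and 7 of them were replication-dependent histone genes. H4C2, H2AC4, H2BC12 and H4C13 were covered over 100% in both untreated libraries and 0% in both NaBu libraries. H3C2 had 96.5% and 93.7%, H3C3 100% and 89.9%, and H3C11 85.7% and 100%, with 0% in NaBu. HRCT1 had 100% and 82.7%. The histone genes were between 387 and 527 bp long, so that a single region decides between none and all of the gene. At the 5′ end of H4C2 all 4 libraries had a region in their full lists, with folds of 3.10 and 3.92 in NaBu and 11.5 and 5.35 in untreated cells. Over the list, 10 of 56 tested histone genes were lower and none higher (17.9%, against 8.67% of protein-coding genes, with none higher and 16 lower at an unadjusted p under 0.05), with a median log2 difference of −1.37. Centring left 9 lower and none higher, and equal summed width gave 5 lower, 4 of them among the 10, and 2 higher.

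**Figure D4:**
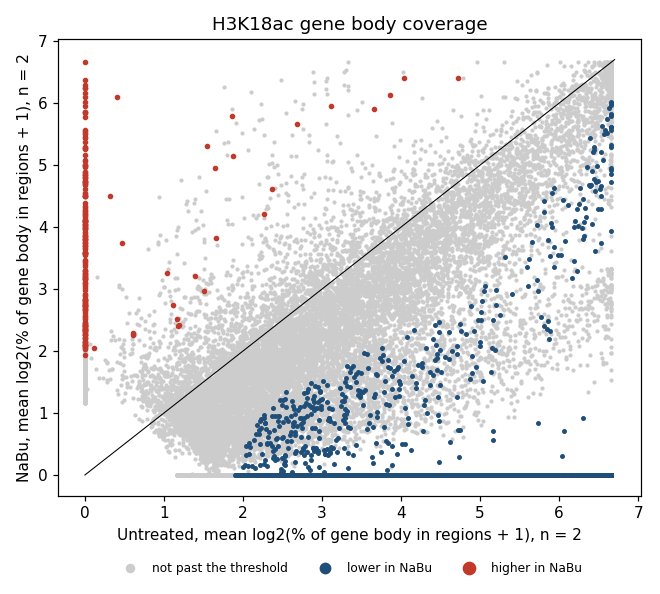
Mean log2(percent of gene body in regions + 1) of the 2 NaBu libraries (vertical axis) against that of the 2 untreated libraries (horizontal axis), 1 point per tested gene. Most of the 220 higher genes lie on the vertical axis and most of the 1670 lower genes on the horizontal axis, at 0% in the other group.

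HOX genes, which set position along the body axis, had the largest share of lower members among the lists tested. Of 35 tested, 14 were lower (40%, against 8.67% of protein-coding genes) and HOXB1 was higher, with a median log2 difference of −1.66. These members are not all separate loci. HOXB8 lies inside the annotated span of HOXB7, and HOXB2, HOXB4 and HOXB6 lie nearby on chromosome 17. HOXB6 was covered over 21.5% and 16.0% in NaBu and 100% and 82.7% in untreated cells. HOXC12 had 0% in both NaBu libraries against 25.8% and 20.9%. HOXB1 had 19.03% and 12.3% in NaBu and 0% in both untreated libraries. Centring gave 10 lower, a fit with the replicate number as a block 7 and equal summed width 3, with 1 higher under each.

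Of 33 tested Wnt genes, 8 were lower (24.2%, against 8.67% of protein-coding genes) and none higher by limma, with a median of −1.26. At an unadjusted limma p under 0.05, 15 were lower and 0 higher. Over all 12256 tested protein-coding genes, 3731 were lower and 236 higher at that threshold. AXIN2, a feedback inhibitor and direct target of beta-catenin, was covered over 4.33% and 4.25% in NaBu and 71.2% and 42.1% in untreated cells (log2 difference −3.40 ± 0.388 (SE), limma adjusted p = 0.0271). The target gene SP5 had 15.1% and 15.4% against 86.4% and 64.4%. NOTUM, a secreted Wnt deacylase, had 0% in NaBu against 16.5% and 21.4%. The receptors FZD4, FZD5, FZD6 and FZD7 and the ligand WNT3 were the other lower members. Centring left 4 lower, as did equal summed width, which also gave 1 higher. The replicate block left 2 lower.

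Of 39 tested cell cycle genes, 7 were lower (17.9%, against 8.67% of protein-coding genes) and none higher by limma. At an unadjusted limma p under 0.05, 17 were lower and 0 higher, against 3731 and 236 of all 12256 protein-coding genes. MKI67, the proliferation marker Ki-67, had 0% in NaBu against 7.27% and 5.93%, although its 5′ end was held by all 4 libraries, with folds of 9.88 and 9.68 in NaBu and 8.60 and 9.43 in untreated cells. CCNB1, a mitotic cyclin, had 0% against 9.68% and 8.57%, and CDT1, a replication licensing factor, 0% against 15.2% and 13.7%. CCNA2, CCND3, CCNE2 and CDC25A were also lower. Centring left 3, as did the replicate block, and equal summed width gave 2, of which 1 was among the 7.

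Intestinal genes were called in both directions here too. LGALS4, a galectin of colon epithelium, was higher, with 4.08% and 4.10% in NaBu and 0% in untreated cells, as was TFF3 with 9.08% and 5.74% against 0%. MUC2 was lower, with 0% and 0.564% against 6.92% and 12.8%. SOX9, a progenitor transcription factor, was lower (12.1% and 12.7% against 100% and 83.1%), as was PDX1 (1.41% and 3.02% against 30.2% and 27.6%). CLDN3, a tight junction claudin, was lower as well (2.59% and 0% against 79.4% and 76.4%). With centred libraries SOX9, PDX1 and MUC2 were no longer called, and with equal summed width MUC2 and CLDN3 were not. With the replicate block none of LGALS4, TFF3, MUC2, SOX9, PDX1 and CLDN3 was called. Of 33 tested keratin genes 7 were lower and KRT31 higher, but equal summed width gave 2 lower and 4 higher. Only 11 of 413 olfactory receptor genes passed the coverage filter, mostly through NaBu coverage, with a median of 0% in both untreated libraries. Of these 11, OR9G1, OR4D1 and OR10H5 were higher and none was lower. Centring left these 3 higher, and equal summed width left 2. Because the filter favoured genes covered in NaBu, their share (27.3%) cannot be compared with the 0.563% of protein-coding genes. In the other lists the lower genes included FOS among AP-1 subunits (27.4% and 21.5% against 96.01% and 87.5%), RHOB, VGF, GADD45B, RPL3 and DES. FOS and RPL3 were not called with centred libraries, equal summed width or the replicate block. No histone deacetylase, sirtuin, acetyltransferase or acyl-lysine reader gene passed the limma test (9, 7, 5 and 12 tested). Of all tested protein-coding genes 8.67% were lower, so few calls would fall in lists this short. At an unadjusted p under 0.05 there were 3, 2, 0 and 5 lower genes and no higher ones.

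Regions gained in NaBu lay mostly away from 5′ ends. With touching regions of the 4 libraries merged and the same strict rule, 4734 regions were gained, 7447 lost and 20498 held by all 4. Of the gained regions 5.39% were centred within 1 kb of a 5′ end, 63.4% elsewhere in a gene and 31.2% between genes. Of the lost regions 27.4% were at 5′ ends, and of those held by all 4, 38.8%. The median distance to a 5′ end was 20622 bp for gained, 7920 bp for lost and 3565 bp for shared regions. With equal summed width on both sides there were 10109 gained and 1003 lost regions, but again a smaller share of the gained ones was at 5′ ends (10.9% against 49.9%). Input regions lay under 7.46% of gained and 18.3% of lost regions.

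The gained region with the highest lower fold lay within AGAP1, an Arf GTPase-activating protein gene, at chr2:235748850-235750895, with folds of 24.4 and 16.1. Others lay within CAB39L at chr13:49347439-49349204 (19.7 and 14.9), KIAA1549 at chr7:138889452-138892227 (15.8 and 14.8) and BCR at chr22:23250561-23252688 (14.7 and 14.0). The strongest lost region lay at the 5′ end of KLF2, a Krüppel-like transcription factor, at chr19:16324790-16325477, with folds of 21.4 and 22.4. KLF2 was not a lost gene by the window rule, because NaBu regions of fold 6.77 and 6.26 touched its window beside that region. The lost list also included the 5′ end of E2F8, a cell cycle repressor, at chr11:19241279-19242350 (14.7 and 14.8).

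AP-1 sites, which enhancers often carry, were slightly more common at NaBu summits. Among summits more than 1 kb from a 5′ end, 5.82% and 6.05% of NaBu and 4.82% and 5.01% of untreated 200 bp windows held TGANTCA. The difference was 1.02 percentage points (exact permutation p = 0.333, the smallest possible), and it ranged from 0.396 with q under 0.05 to 1.97 with equal summed width. Windows 5 kb upstream held it in 5.78% and 5.73% for NaBu and 5.75% and 5.70% for untreated cells, so untreated summits were below their surroundings and NaBu summits close to them. Among the 20000 strongest regions NaBu summits were also below, with 4.83% and 4.71% against 5.70% and 5.75%. In the regions gained away from 5′ ends the share was 6.50% and 6.55%, and in those lost 5.45% and 5.39%. GGGCGG was in 5.63% and 5.34% of gained and 10.9% and 11.3% of lost summit windows, which had median GC contents of 49.5% and 49% against 53% and 53.5%. The TCF/LEF letters CTTTGAT were in 2.79% and 2.82% of gained and 1.69% and 1.73% of lost windows, with 2.23% to 2.51% in their flanks 5 kb away. The GATA letters AGATAA were in 8.40% and 8.36% of gained and 7.29% and 7.25% of lost windows, below their flanks of 11.2% and 11.3% for gained and 10.1% and 9.83% for lost. The letters CAAAGTCCA (HNF4), TGTTTAC (FOX), GGAATG (TEAD), CCGGAAG and the NRF1 motif were also searched on both strands.

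Other marks of the series gave readouts the calls did not use. Of the 1586 lost genes, both untreated H4K12ac libraries held 78.8% and both H3K18ac libraries of propionate-treated (NaPr) cells 60.8%, against 43.9% and 37.1% of all genes. Both H4K12ac libraries of NaBu cells held 0.315% of them and both H3K18 butyrylation libraries 0.252%, against 10.1% and 7.44% of all genes. Of the 193 gained genes, both H3K18 butyrylation libraries held 18.7% and both H4K12ac NaBu libraries 10.9%, while the untreated H4K12ac libraries held 11.4% and the H3K18ac NaPr libraries 6.22%. Genes held by all 4 H3K18ac libraries had higher shares than lost genes, 96.7% in both untreated H4K12ac and 87.1% in both H3K18ac NaPr libraries. They also exceeded the gained genes, with 24.4% in both H3K18 butyrylation and 33.6% in both H4K12ac NaBu libraries. At the level of regions, both H3K18 butyrylation libraries touched 23.3% of gained, 0.470% of lost and 32.3% of shared regions. The H4K12ac lists of NaBu cells, with 88658 and 11680 regions, were shorter than those of untreated cells, with 208823 and 191194, and the part of list length in these shares was not tested.

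**Figure D5:**
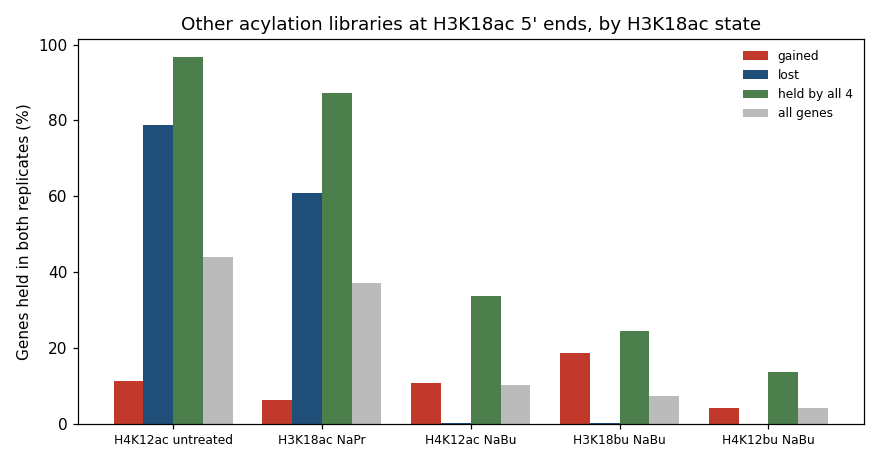
Genes held at their 5′ end in both replicates of 5 other groups (%, vertical axis), for genes whose H3K18ac was gained, lost or held by all 4 libraries and for all genes. Lost genes reach 78.8% in untreated H4K12ac and 0.315% in H4K12ac of NaBu cells, and gained genes 18.7% in H3K18 butyrylation.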

How the data were processed

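SW480 libraries and inputs were grouped by their labels. Per the submitters' processing notes, reads were handled with bcl2fastq 2.17.1, cutadapt 1.8.1, Bowtie2 2.3.1 and MACS2 2.1.0 on hg38. According to the methods, an ENCODE-type pipeline with input as control was used. The authors called regions per library at p = 0.01 and removed blacklisted ones. The deposited lists give the fold ratio of pileup to local background, a −log10 p-value and a −log10 q-value for each region. No read counts were used, so depth was solved from fold and p, and no counting interval is given.

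Windows were 1 kb either side of the 5′ ends of 38899 GENCODE 44 genes (20033 protein-coding, 18866 lncRNA). Gene body coverage was tested with limma 3.58.1 in R 4.3.3 (trended empirical Bayes, pseudocount 1%, minimum mean 1%, Benjamini-Hochberg). Single values per library were compared with exact permutation tests over 6 relabellings. On data simulated for the gene body comparison over 18491 genes, limma called 25 of 100 genes changed by 4 on the log2 scale. It called 2 of 100 genes changed by 2, and 2 of 18291 unchanged genes. The rate of calls among genes with no coverage in either library of a group was not tested. Named genes were the 12 gained and 12 lost protein-coding genes without an input region with the highest lower fold, the 8 higher and 8 lower genes with the largest log2 difference, and members of 30 gene lists gained or lost at the 5′ end, of which 1 gained member is not reported here. List members called in the gene body test, markers held by all libraries, KLF2, E2F8, FXYD3, and single regions with the genes they lie in were named after their values were seen. The comparison, lists and tests were chosen with earlier results of these data known. Of 35116 RefSeq promoters, the 22114 with a unique symbol on the main chromosomes were identical to hg38. Alternatives covered region sets, thresholds, windows, gene types, input, pseudocounts, filters, scaling and each library left out. Python 3.11.15, pandas 2.3.3 and pysam 0.24.0 were used.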

Additional observations from a re-analysis of the deposited data

How the results depend on the processing

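By the strict rule 193 genes were gained and 1586 lost. The 20000 strongest regions on the holding side gave 35 and 505, and a fold of 5 or more, added after seeing the data, 33 and 579. Gained genes numbered 297 with the strongest regions on both sides, 706 with regions over input removed and 71 for protein-coding genes alone. Equal summed width, also added later, gave 962 gained and 665 lost on both sides, and 323 lost on the holding side alone. It reversed the difference in genes held to 426 (exact permutation p = 1). Leaving out 1 library gave 285 to 512 gained genes and 1897 to 4924 lost genes, the highest lost count being without NaBu replicate 1 and the highest gained count without NaBu replicate 2. For gene bodies, 220 higher and 1670 lower genes became 97 and 869 with all regions, 467 and 860 with centred libraries (added after seeing the data), and 648 and 479 with equal summed width. There were 375 higher genes with the 20000 strongest regions and 830 lower genes without a filter on low coverage. Leaving out 1 library gave 0 to 130 higher and 0 to 2140 lower genes, with 0 in both directions without either NaBu replicate. Samples of the same number did not deviate together (r = −0.03), and a replicate block gave 77 higher and 571 lower genes. For named genes, 478 values under an alternative kept their call, and 81 did not, 31 at 5′ ends and 50 in gene bodies. No gene body value changed sign, and sign was not scored at 5′ ends. Using all or the strongest regions on both sides, or leaving out 1 library, only loosened the 5′ end rule. Those settings could not end a call at a 5′ end, so part of the 478 was fixed in advance. The causes were not tested. The covered width of shared windows and the AP-1 share kept their direction under every alternative run, with no p under 0.333 possible. A gene without a region may be below the peak caller's threshold at that library's depth, so absence of a region is not absence of the mark.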

Other observations

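Some genes held many gained or lost regions. GSE1, a gene of a corepressor-associated protein, held 20 gained regions over 506680 bp, the most of any protein-coding gene. CACNA1C, a calcium channel subunit, held 11 over 727179 bp. The corepressor gene CTBP2 held 10 over 176854 bp. HDAC4, a class II deacetylase, and RUNX1, a transcription factor, each held 8. The genes with most lost regions were ABTB2, IQSEC3, MYLK, NTM and SYN3, with 8 each. Among them MYLK encodes myosin light chain kinase, and SYN3 and IQSEC3 encode synaptic proteins. Long genes can hold more regions, and these genes were named after their values were seen.

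The share of gained 5′ ends varied by chromosome, with no test made. The largest shares were on chromosome 14, with 14 gained of 1267 genes (1.10%), and chromosome 21, with 6 of 575 (1.04%). Chromosome 18 had 8 of 809 (0.989%) and chromosome 19 had 21 of 2224 (0.944%). Chromosome 17 had 2 of 2162 (0.0925%) and chromosome 3 had 2 of 2055 (0.0973%), against 0.496% of all genes. Chromosomes 9 and 17 had the largest shares of lost 5′ ends, 6.53% and 6.48%, and chromosome 14 one of the lowest, 2.21%. Copy number was not measured here, and its part in these shares was not tested.

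Other genes outside the lists were chosen after their values were seen. GATA2, a transcription factor of development, was covered over 27.04% and 25.8% in untreated cells and 0% in both NaBu libraries. The forkhead factor FOXD1 had 30.7% and 31.4% against 0%, and the metallothionein gene MT1F 33.5% and 33.2% against 0%. Higher genes seen in the same way were ZG16, a goblet cell lectin, with 9.54% and 12.5% in NaBu, and EDN1, the endothelin precursor, with 19.0% and 12.8%, both at 0% in untreated cells. At the 5′ end of EDN1 all 4 libraries had a region in their full lists. Its folds were 6.77 and 3.26 in NaBu and 5.26 and 2.84 in untreated cells. NaBu replicate 1 also had a region at the 5′ ends of MT1F (fold 3.68) and FOXD1 (2.80). All 5 genes passed the limma test at an adjusted p of 0.00938 or less, but they were picked for these values, so the test adds no separate support.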
